A study of Mus with 9 samples.

Results

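The genes described here are 10 markers of mural cells, the cells that wrap the vessels of the brain: the contractile smooth muscle genes Acta2, Tagln, Myl9, Myh11, Cnn1 and Des, and the pericyte and mural cell genes Pdgfrb, Rgs5, Cspg4 and Notch3. They were found by their symbol in both deposited tables, where each of the 10 has 1 of the 22206 probe sets. Acta2 was chosen from these same data for its low average with trigonelline (TG), so its difference between the SAMP8 groups is a description. The other 9 genes were chosen by cell type, with earlier results of these data known.

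Hippocampal RNA of male mice was measured on Clariom S Mouse arrays, with 3 arrays in each of 3 groups by the sample titles and the methods, whereas the design text speaks of duplicate samples. The methods give the age of the mice used as 16 weeks, and dosing and testing added to that age before the hippocampus was taken. The SAMR1 group (senescence-accelerated mouse resistant 1, the control strain with normal aging) and the SAMP8 group (senescence-accelerated mouse prone 8, an inbred strain with early memory loss) received vehicle, which is water in the methods and saline in the sample records. The TG-treated SAMP8 group received trigonelline, a plant alkaloid, orally, with a daily dose of 5 mg/kg over 30 days, and dosing went on during 8 days of behavioral testing. The source name in the records of this group gives 5 mg/ml in place of 5 mg/kg. Mice were housed singly and the behavioral test was the Morris water maze. The methods state that the samples for the arrays were drawn at random from each group, and whether meninges were stripped from the hippocampus is not given in the sources used here. The question put to these arrays was what differs between the strains and what differs with TG.

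Arteries and arterioles are sheathed by smooth muscle cells, which contract through smooth muscle actin and myosin, whereas capillaries carry pericytes, which are attached to the endothelium and hold little of the contractile proteins. Both cell types depend on platelet-derived growth factor from the endothelium and on Notch signals, and in the brain they adjust blood flow and help to keep the blood-brain barrier closed. Smooth muscle cells are also found in the vessels of the meninges, the membranes around the brain.

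The deposited tables hold 1 average per group in log2 signal for each probe set and no value for a single array. Every value below is therefore the authors' average or a difference of 2 such averages, without a spread between mice and without a test, and whether a difference exceeds the spread between mice was not tested. The averages have 2 decimals, so a difference can be off by 0.01 from rounding. Their medians over all probe sets were 6.09 (SAMR1), 6.04 (SAMP8) and 6.07 (TG-treated SAMP8), and the quartiles of all differences were -0.19 and 0.20 for TG-treated SAMP8 minus SAMP8 and -0.21 and 0.21 for SAMP8 minus SAMR1. Defining genes of hippocampal neurons had high averages in every group, such as Camk2a at 19.93, the top of the scale, in all 3 groups, Slc17a7 at 18.02 to 18.12 and Neurod6 at 14.85 to 14.88. In RNA of whole tissue, fewer cells of a type and less RNA per cell cannot be told apart.

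Acta2 encodes smooth muscle alpha-actin, the main actin of arterial smooth muscle, and lies on chromosome 19 from 34240336 to 34255585 (GRCm38). Its average was 5.52 in SAMR1, 7.71 in SAMP8 and 5.54 with TG. SAMP8 without TG thus stood apart, 4.56-fold above SAMR1 and 4.50-fold above TG-treated SAMP8, while the averages of SAMR1 and TG-treated SAMP8 differed by 0.02. Of the 22206 probe sets, 1 had a lower difference with TG than the -2.17 of Acta2, and 29 had a higher difference between SAMP8 and SAMR1 than its 2.19. These places describe the gene and follow from how it was chosen. Both differences contain the same SAMP8 average, with opposite sign.

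Actins are near-identical proteins from separate genes, and the other isoforms were looked up beside Acta2. Actg2, the second smooth muscle actin, had averages of 3.42, 3.48 and 3.51 in SAMR1, SAMP8 and TG-treated SAMP8. Actc1, the cardiac actin, went the other way with 6.90, 6.27 and 6.89 in the same order. Acta1, the skeletal actin, stood between 3.94 and 4.00. The cytoplasmic actins differed little, as Actb was at 19.22, 19.34 and 19.23, and the probe set shared by Actg1 and Mir6935 was at 15.36, 15.52 and 15.52. Among the isoforms, a pattern like that of Acta2 by 1.5-fold in either comparison was not seen in any other gene, and the only other isoform past 1.5-fold was Actc1, in the opposite direction.

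**Figure D1:**
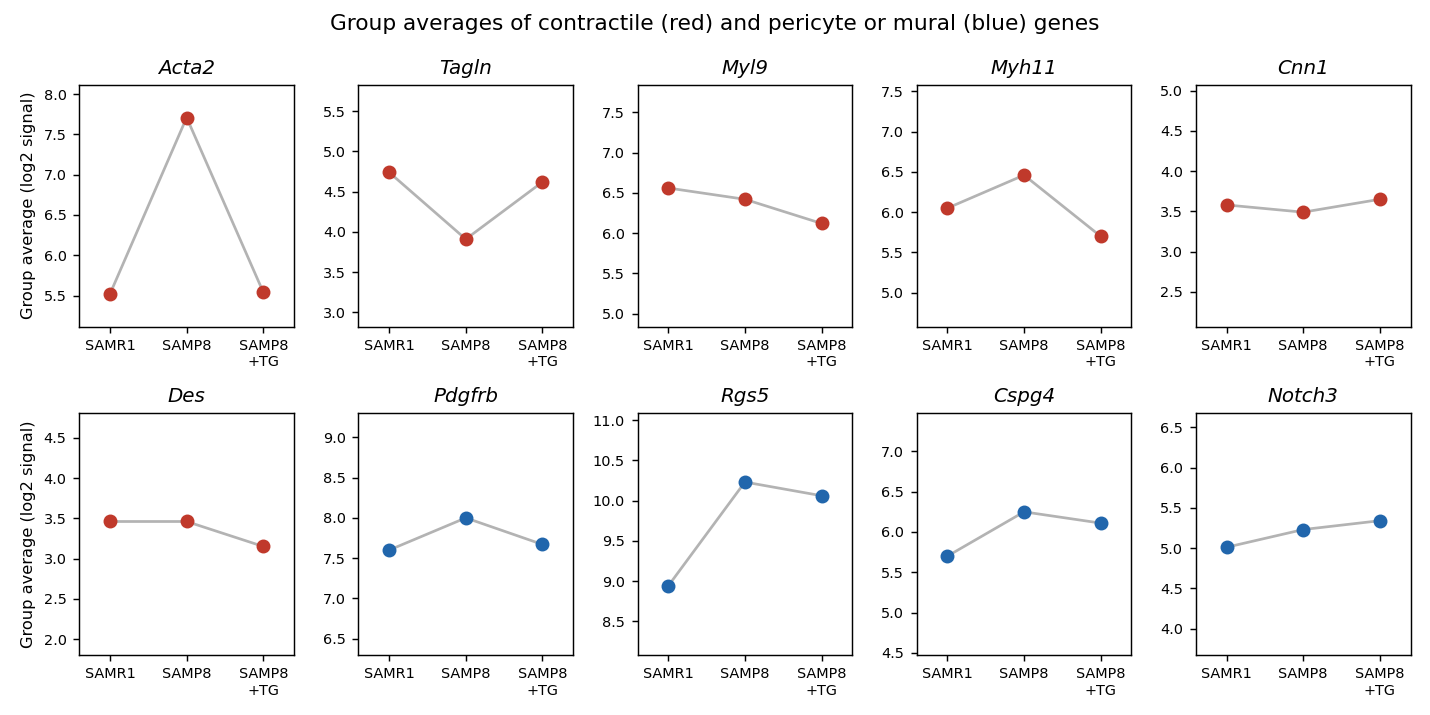
Group averages of the 10 genes in log2 signal (vertical axis, each panel spanning 3 log2 units) for SAMR1, SAMP8 and TG-treated SAMP8. Each point is the authors' average of 1 group and has no error bar because no spread is in the tables, and the grey lines only join the points. Acta2 peaks in SAMP8 at 7.71, Tagln is lowest there at 3.91, and Rgs5 is above SAMR1 in both SAMP8 groups.

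The other contractile genes did not share one direction. Myh11, the smooth muscle myosin heavy chain on chromosome 16 from 14194527 to 14292188, had averages of 6.05 in SAMR1, 6.46 in SAMP8 and 5.70 with TG. It was 1.69-fold lower with TG than in SAMP8 and 1.33-fold higher in SAMP8 than in SAMR1, so its order of groups partly resembled that of Acta2 at a smaller size. Tagln, which encodes transgelin (SM22), an actin-binding protein of smooth muscle, stood at 4.74, 3.91 and 4.62 in SAMR1, SAMP8 and TG-treated SAMP8. Its lowest average was thus that of SAMP8, 1.78-fold below SAMR1 and 1.64-fold below TG-treated SAMP8, the reverse of Acta2. Tagln lies on chromosome 9 from 45929628 to 45936058, where its span overlaps the end of Pcsk7, and the probe set of Pcsk7 had averages of 5.97, 6.33 and 5.60, with differences of the opposite sign to those of Tagln.

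Myl9, the regulatory light chain of smooth muscle myosin on chromosome 2, was at 6.56 in SAMR1, 6.42 in SAMP8 and 6.12 with TG. The lowest of these averages was the one with TG, 1.36-fold below SAMR1. Cnn1, the calponin that binds actin in differentiated smooth muscle, lay at 3.58, 3.49 and 3.65, a range of 0.16. Des, the desmin of muscle intermediate filaments, had 3.46 in both untreated groups and 3.15 with TG. Cnn1 and Des belong to the 25% of probe sets with the lowest mean signal over the 3 groups, below 4.40, and Tagln at a mean of 4.42 is just above that limit. No detection call was used here, so whether these 3 were above background is not known.

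All 4 pericyte and mural genes had a higher average in SAMP8 than in SAMR1, and all 4 also in TG-treated SAMP8. Some of these differences were small. Notch3 was 0.22 higher in SAMP8 than in SAMR1, and 75.2% of all probe sets had a lower difference. With TG, Pdgfrb was 0.07 above SAMR1, and 60.4% of all probe sets had a lower difference. This count by sign carries no weight of its own. Rgs5, a regulator of G-protein signaling that marks pericytes of the brain, lies on chromosome 1 from 169655501 to 169695813. Its averages were 8.94 in SAMR1, 10.23 in SAMP8 and 10.06 with TG. Both SAMP8 groups were therefore more than 2-fold above SAMR1, by 2.45-fold without and 2.17-fold with TG, and the averages of the SAMP8 groups differed by 0.17. For SAMP8 minus SAMR1, 77 of the 22206 probe sets had a higher difference than the 1.29 of Rgs5.

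Cspg4, the proteoglycan NG2 of pericytes and also of oligodendrocyte precursors, was at 5.70 in SAMR1, 6.25 in SAMP8 and 6.11 with TG. Pdgfrb, the receptor for platelet-derived growth factor on mural cells, had averages of 7.60, 8.00 and 7.67 in the same order. Notch3, the Notch receptor of mural cells, had 5.01, 5.23 and 5.34. Cspg4 and Notch3 thus kept most or all of their distance from SAMR1 under TG, by 0.41 and 0.33 in log2, whereas Pdgfrb with TG was within 0.07 of SAMR1.

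Counted against a limit of 1.5-fold, 2 of the 10 genes were lower with TG than in SAMP8 (Acta2 and Myh11), and 3.74% of all 22206 probe sets were past the same limit in that direction. Higher with TG was 1 gene (Tagln), beside 4.48% of all probe sets. Between SAMP8 and SAMR1, 2 genes were higher in SAMP8 (Acta2 and Rgs5) beside 5.00% of all probe sets, and 1 was lower (Tagln) beside 6.08%. Between TG-treated SAMP8 and SAMR1, 1 gene was higher (Rgs5) beside 5.62% of all probe sets and 0 were lower beside 4.83%. Acta2 was chosen for such a difference, so these counts carry no weight of their own.

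At a limit of 2-fold, Acta2 alone was lower with TG (0.342% of all probe sets), none of the 10 was higher (0.473%), Acta2 and Rgs5 were higher in SAMP8 than in SAMR1 (0.838%) and none was lower (1.47%). At 1.1-fold, the limit on fold change in the methods, 7 of the 10 genes were lower with TG, all but Tagln, Cnn1 and Notch3, where 31.0% of all probe sets were lower, and Tagln and Cnn1 were higher, where 32.4% were. With that limit, 6 genes were higher in SAMP8 than in SAMR1, namely Acta2, Myh11 and the 4 pericyte and mural genes (33.0% of all probe sets), and Tagln and Myl9 were lower (32.5%).

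**Figure D2:**
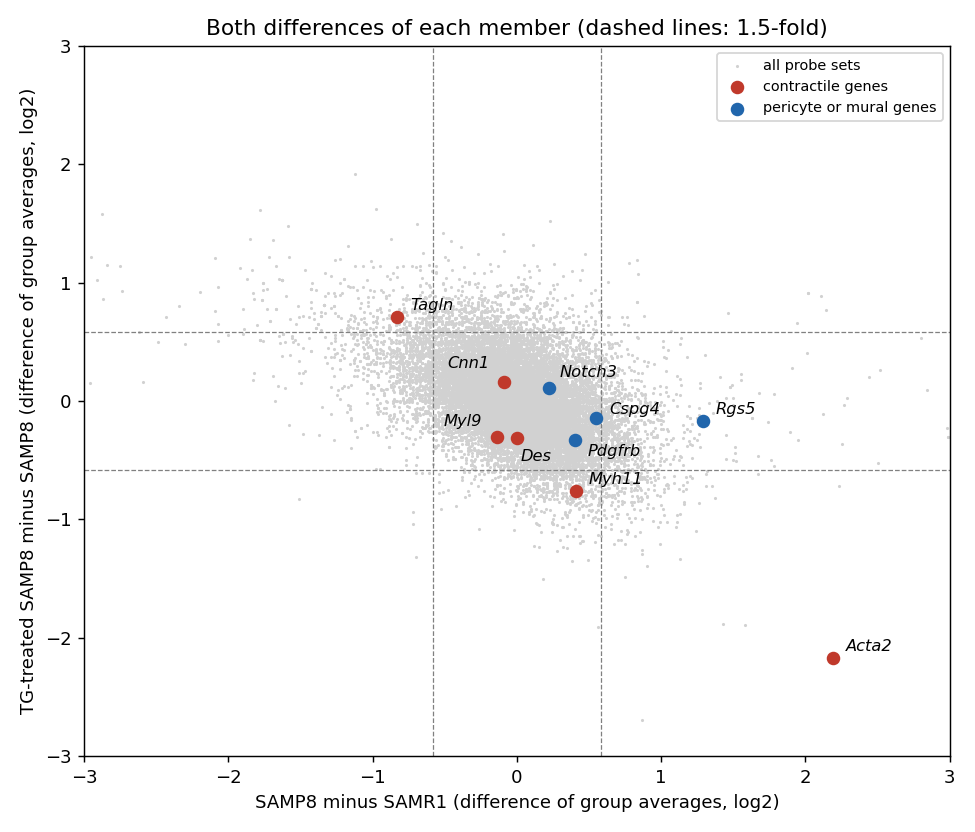
Difference of group averages for SAMP8 minus SAMR1 (horizontal axis, log2) and TG-treated SAMP8 minus SAMP8 (vertical axis, log2), with contractile genes in red, pericyte or mural genes in blue, all probe sets within 3 log2 units in grey and 1.5-fold as dashed lines. Both axes contain the SAMP8 average with opposite sign, so the slope of the grey cloud is partly built into the plot, and Acta2 at 2.19 and -2.17 lies far from the other 9 genes.

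Pericyte genes were set beside contractile genes to read mural cell content apart from contractile genes. With TG, the median difference was -0.31 for the 6 contractile genes, which ran from -2.17 (Acta2) to 0.71 (Tagln), and -0.16 for the 4 pericyte and mural genes, which ran from -0.33 (Pdgfrb) to 0.11 (Notch3), beside a median of 0.01 over all probe sets. Between SAMP8 and SAMR1 the medians were -0.05 for the contractile and 0.48 for the pericyte and mural genes, beside 0.00 over all probe sets. The 2.17 log2 units by which Acta2 was lower with TG were thus not shared by any of the other 9 genes, whose deepest difference was the -0.76 of Myh11. Without Cnn1 and Des, the contractile median with TG was -0.53, a value that rests on Acta2, since it was -0.30 when Acta2 was left out as well.

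Other genes of the contractile apparatus and its control were taken from a list of 16. With TG, 2 of them were lower by 1.5-fold and 2 higher, with a median of -0.02, and the shares of all probe sets given above for 1.5-fold stand beside these and the following counts. Mylk, the kinase that switches on smooth muscle myosin by phosphorylating its light chain, was lower at 5.77 in SAMR1, 6.20 in SAMP8 and 5.06 with TG, a difference of -1.14 with TG. Pln, the phospholamban that restrains the calcium pump, had 4.05, 4.64 and 3.95, in the lowest 25% of signal. Mylk and Pln thus had their highest average in SAMP8, as Acta2 and Myh11 did. The genes higher by 1.5-fold with TG were Synpo2, an actin-binding protein of the Z-disc, at 5.32 and 5.95 in the SAMP8 groups, and Myl6, a myosin light chain that is also found outside muscle, at 10.75 and 11.38. Between SAMP8 and SAMR1 the median of the list was 0.14, with 2 genes higher by 1.5-fold and 0 lower. The highest of these differences was that of Srf, the serum response factor that drives smooth muscle genes, with 7.69 in SAMR1, 8.37 in SAMP8 and 8.41 with TG. Myocd, the cofactor of Srf in smooth muscle, stood at 3.42 to 3.51, in the lowest 25% of signal.

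In a list of 12 further pericyte genes, the higher averages of Rgs5 and the other 3 pericyte and mural genes in SAMP8 were matched by some genes only. Vtn, vitronectin, a matrix protein made by brain pericytes, had 10.94 in SAMR1, 12.12 in SAMP8 and 11.74 with TG. Ndufa4l2 was at 3.40, 4.02 and 3.69, in the lowest 25% of signal. Cd248, endosialin, went the other way, with 7.42 in SAMR1 against 6.56 and 6.68. The potassium channel subunits of pericytes, Kcnj8 and Abcc9, were lower in SAMP8 than in SAMR1 by 0.29 and 0.23. Over the 12 genes the median was -0.11 between SAMP8 and SAMR1, with 2 higher and 1 lower by 1.5-fold, and -0.07 with TG, where Mcam, a cell adhesion molecule of mural cells and endothelium, was lower by 1.5-fold (5.83 in SAMP8, 5.03 with TG) and the highest difference was that of Foxf2 at 0.18.

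Signaling to and from mural cells was followed through 24 genes. They belong to the platelet-derived growth factor, transforming growth factor beta, Notch, angiopoietin, endothelin and angiotensin pathways. With TG, 1 of the 24 was lower by 1.5-fold and 0 were higher, with a median of -0.06. That gene was Angpt1, angiopoietin 1, which mural cells secrete to steady the endothelium, at 8.12 in SAMR1, 8.94 in SAMP8 and 8.20 with TG. Pdgfb, the ligand of Pdgfrb, was at 6.32, 6.60 and 6.54, and its relative Pdgfa had the highest difference with TG in the list, 0.27. The ligand and the receptor of this pair therefore stayed within 1.5-fold in both comparisons. The 8 Notch pathway genes of the list ran from -0.46 for the target Hey1, which was at 10.44, 10.68 and 10.22, to 0.24 for the target Heyl with TG, and the ligands Jag1 and Dll4 differed by 0.22 and 0.03. Between SAMP8 and SAMR1, Angpt1 and Eng, the endoglin of endothelial cells, were higher by 1.5-fold, Eng with 5.14 in SAMR1, 6.09 in SAMP8 and 6.20 with TG.

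Markers of other cells in the sample were read beside the mural genes. Of 21 genes of meninges and fibroblasts with a probe set of their own, 10 were lower by 1.5-fold with TG and 0 higher, with a median of -0.44, beside 3.74% and 4.48% of all probe sets. Between SAMP8 and SAMR1, 7 were higher and 2 lower, with a median of 0.33, beside 5.00% and 6.08%. Their summed linear signal was 6030 in SAMR1, 7950 in SAMP8 and 3430 with TG, of which Zic1 alone made 31.9%, 35.7% and 22.0%, and no gene of the list had an average below 3.39. The deepest differences with TG were those of Ptgds, a prostaglandin synthase of the leptomeninges (-2.69), the transcription factor Zic1 (-1.91), the growth factor Igf2 (-1.89) and the matrix genes Fmod (-1.88) and Ogn (-1.10). Islr was at 6.55 in SAMR1, 7.59 in SAMP8 and 6.89 with TG. The list was not uniform. Of its fibroblast collagens, Col1a1 and Col1a2 were higher with TG by 0.13 and 0.17, and Col3a1, in the lowest 25% of signal, was highest in SAMP8 at 3.39, 3.73 and 3.55. Lum was higher with TG by 0.46, and Dcn, decorin, was highest in SAMR1 at 10.66, followed by 10.15 in SAMP8 and 9.38 with TG. This list was chosen with its earlier results known, and the part of meningeal cells in the Acta2 difference was not tested.

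Endothelial genes, the partners of pericytes, were lower by 1.5-fold with TG in 5 of 17 cases and higher in 0, with a median of -0.35, beside 3.74% and 4.48% of all probe sets. They were higher in SAMP8 than in SAMR1 in 6 cases and lower in 0, with a median of 0.28, beside 5.00% and 6.08%. Their summed linear signal was 9250 in SAMR1, 18700 in SAMP8 and 10400 with TG. However, Slc2a1 alone made 56.1%, 59.9% and 55.2% of it, and without Slc2a1 it was 4060, 7510 and 4670. Most of that remainder in SAMP8 came from Slco1a4 at 11.62 and from Abcb1a at 10.82, which was at 6.5 in SAMR1. The lowest average of any gene in the list was 4.91. The 5 genes were transporters and a junction gene of the blood-brain barrier: Mfsd2a (-1.02), Slc2a1 (-0.96), Abcb1a (-0.92), Ocln, which was at 7.38 in SAMP8 and 6.38 with TG, and Slco1a4, which was at 11.62 and 10.62. Abcb1a, the drug efflux pump, was also 4.32 log2 units higher in SAMP8 than in SAMR1, and Slc2a1, the glucose transporter, 1.11. Of the general endothelial genes, Pecam1 and Cdh5 were lower with TG by 0.35 and 0.50, within the 1.5-fold limit. Others differed little, such as Tie1 at -0.04, Erg at -0.05 and Vwf at 0.06. The junction gene Cldn5 was lower by 0.14. By sign, 14 of the 17 genes were lower with TG and 3 higher, of which Podxl was the highest at 0.33. The part of the endothelium in the mural values was not tested.

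The remaining marker lists had medians closer to 0 with TG than the meninges and endothelial lists, that of oligodendrocyte precursors only slightly so. Oligodendrocyte precursors, which also make Cspg4, had a median of 0.32 over 7 genes, from -0.45 for Vcan to 0.69 for Sox10, while Cspg4 itself was lower by 0.14. The medians were 0.03 over 14 genes of the choroid plexus (Kl at -0.79, Ttr at 0.72), 0.11 over 10 genes of striated muscle (Myod1 at -0.20, Myl2 at 0.71), -0.03 over 6 of astrocytes (Slc1a3 at -0.38, S100b at 0.58), -0.04 over 5 of perivascular macrophages (Mrc1 at -0.24, F13a1 at 0.28) and -0.13 over 8 of hippocampal neurons (Prox1 at -0.85, Rbfox3 at 0.21). A further 2 neuron genes share their probe sets with a second symbol, and were lower with TG, Zbtb20 at -0.65 and Neurod1 at -0.49. Over all probe sets that name a gene of the neuron list, the median was -0.26. Between SAMP8 and SAMR1, the 5 perivascular macrophage genes had a median of -0.05, with 3 below 0 and 2 above. The highest was Mrc1, at 6.51 in SAMP8 against 5.51. The striated muscle genes had a median of -0.26 between these groups, with 4 of the 10 in the lowest 25% of signal. Their median was -0.44 without the lowest signal and -0.16 when centred within classes of signal. The 4 pericyte and mural genes had 0.48, whereas the 12 further pericyte genes had -0.11.

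**Figure D3:**
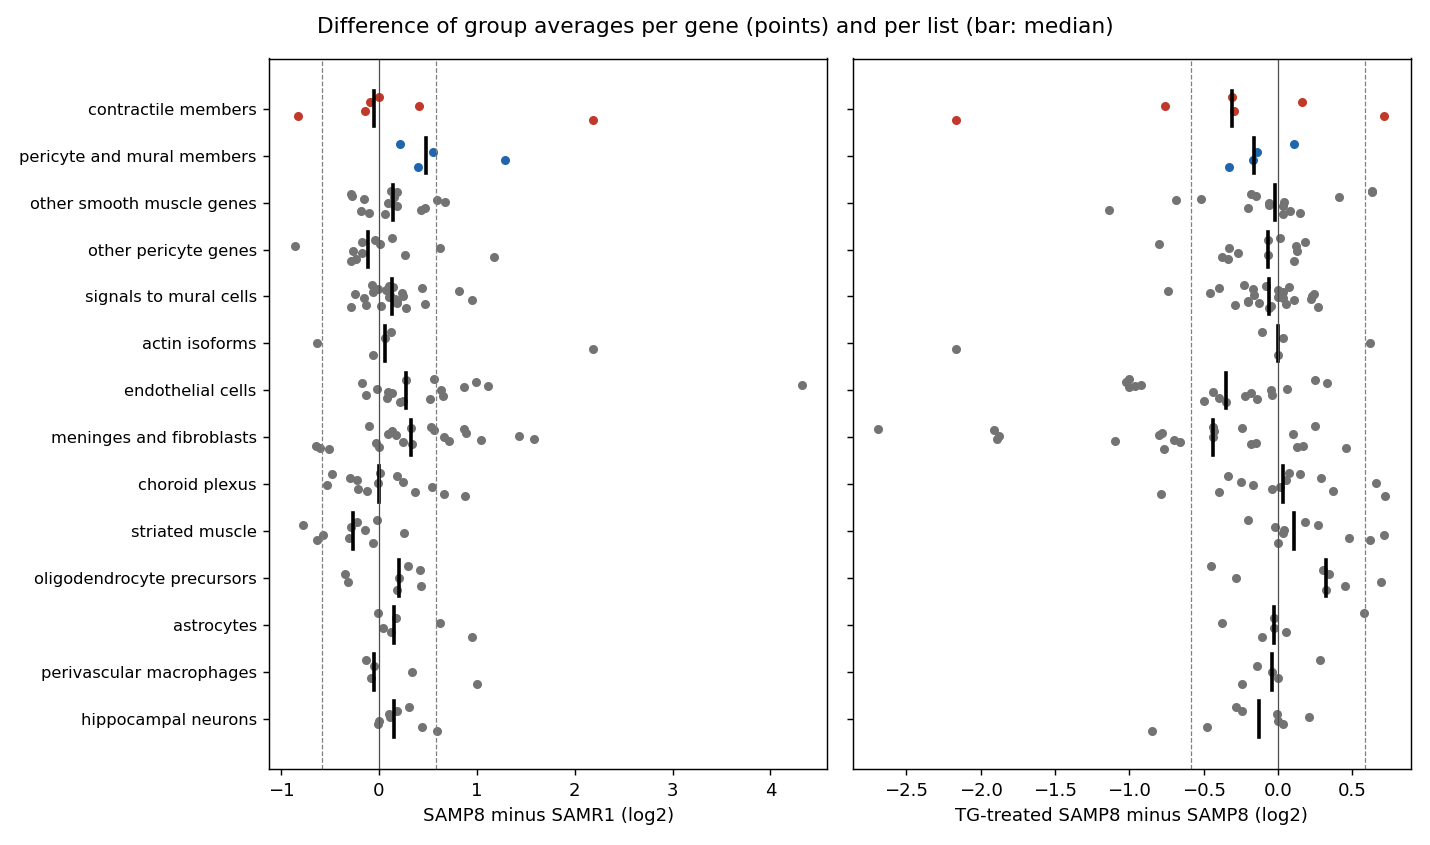
Differences of group averages (log2) for SAMP8 minus SAMR1 (left) and TG-treated SAMP8 minus SAMP8 (right), with 1 point per gene, a black bar at each list's median, and dashed lines at 1.5-fold. The meninges and endothelial lists have medians of -0.44 and -0.35 with TG, below the -0.31 of the contractile and the -0.16 of the pericyte and mural genes, and the other lists lie nearer to 0 or above it.

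The genes whose pattern was most like that of Acta2 were found over the 3 group averages, by the Euclidean distance between pairs of differences in log2, among 21366 other probe sets with a single symbol. The nearest was Igf2, with averages of 7.09 in SAMR1, 8.67 in SAMP8 and 6.78 with TG, at a distance of 0.67. Fmod, fibromodulin, followed with 4.66, 6.09 and 4.21 at 0.81. Then came Arl15 with 8.76, 9.89 and 8.56 at 1.35, Ptgds with 9.39, 10.26 and 7.57 at 1.42, and AI593442 with 10.38, 11.62 and 10.52 at 1.43. None of the other 9 mural genes was among these 5. Igf2, Fmod and Ptgds belong to the list of meninges and fibroblasts, which was chosen with earlier results of these data known. The ranking also uses the difference for which Acta2 was chosen, so this overlap carries no weight of its own. A likeness over 3 averages is a description and says little about single mice.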

How the data were processed

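RNA of 9 hippocampal samples, 3 per group by the sample titles, was hybridized to Clariom S Mouse arrays. The free-text description of each record concerns a macrophage line and was not used. The authors normalized the arrays by SST-RMA in the Transcriptome Analysis Console and deposited 1 table for each of 2 comparisons, with group averages in log2 signal under mm10 (GRCm38) annotation. Each table also holds the fold change, p-value and adjusted p-value of the authors' own comparison, and these 3 columns were not used. The SAMP8 averages were identical in both tables.

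Differences of the deposited log2 averages were computed for 22206 probe sets. With no value per array, no test was run. A difference of 1.5-fold was the limit for counts, with 1.1 and 2 as alternatives. Each gene was read from the probe set whose only symbol it is, and 151 of 156 list genes had one. Named were the 10 genes, the actins, the 5 patterns nearest to Acta2, and in each other list the highest and the lowest difference with TG and genes past 2-fold in either of the 2 deposited comparisons. Further genes were named after their values were seen. Genes and lists were chosen with earlier results of these data known. Gene positions were taken from RefSeq on GRCm38.p6. The code was tested on simulated data. Python 3.11.15, numpy 2.4.6, pandas 2.3.3 and matplotlib 3.10.9 were used. Precision is limited by the 3 arrays behind each average.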

Additional observations from a re-analysis of the deposited data

How the results depend on the processing

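No paired analysis was possible because the tables hold 1 average per group, and for the same reason no array could be left out. The limit on fold decided the counts. At 1.1-fold 7 genes were lower and 2 higher with TG, 6 higher and 2 lower in SAMP8. At 2-fold 1 was lower and 0 were higher with TG, and 0 were lower in SAMP8. When the dimmest 25% of all probe sets were left out, which removes Cnn1 and Des, the contractile median was -0.53 with TG and 0.14 between the strains. The contractile minus the pericyte median was -0.15 with TG, -0.31 by means and -0.38 without the lowest signal. Between the strains it was -0.52, -0.36 by means and -0.34 without the lowest signal. The direction of these shifts rests on Acta2, which was chosen for its difference. With Acta2 left out, the means still departed from the medians, but in the opposite direction. Without Acta2 the medians differed by -0.15 with TG and -0.57 between the strains, and, in alternatives added after seeing the data, the means by 0.03 and -0.75, and the medians without the lowest signal by -0.15 and -0.62. Of 40 recomputed differences of single genes, 39 moved by at most 0.1, and that of Rgs5 between the strains was 1.15 when centred within classes of signal. Of 96 medians of the other lists, 9 moved by more than 0.1. Low signal limits Cnn1, Des and Tagln most.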

Other observations

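The measured genes next to each of the 10 genes on its chromosome, 3 on either side, were looked up after the values above had been seen. Beside Acta2, the averages in SAMR1, SAMP8 and TG-treated SAMP8 were 7.74, 7.66 and 7.91 for Stambpl1, which ends just before the Acta2 span, and 4.83, 4.27 and 4.92 for Fas on the other side. Lipa, the lysosomal acid lipase, was at 7.18, 7.46 and 6.75, and Lipm at 5.23, 4.12 and 4.42. None of the 6 neighbours of Acta2 had its highest average in SAMP8 by 1.5-fold over both other groups. Beside Rgs5, its relative Rgs4, a regulator of G-protein signaling in neurons, was at 12.12, 12.66 and 13.34, so its highest average was that of TG-treated SAMP8. Over all 60 neighbours, 5 were lower and 3 higher by 1.5-fold with TG, beside 3.74% and 4.48% of all probe sets, and 3 were higher and 4 lower in SAMP8 than in SAMR1, beside 5.00% and 6.08%.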
